A study of Mus musculus with 22 samples.

Results

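MHC class I molecules and the proteins that load peptides onto them were followed here in whole brains of the inbred mouse strains C57BL/6J, here B6, and DBA/2J, here D2. The members were 9 genes, the heavy chain genes H2-K1, H2-D1, H2-Q10 and H2-T23, the heavy chain pseudogene H2-K2, the light chain gene B2m, the peptide transporter genes Tap1 and Tap2, and Tapbp, which encodes tapasin. Every probeset whose platform symbol was one of these genes alone was taken, dim ones included. H2-K2 was found under its older symbol EG630499. This gave 109 listed probesets, of which 8 were empty on every array (4 of H2-K1, 2 of H2-D1 and 2 of H2-K2), so that 101 of the 1190406 probesets with values were members. Another 95 probesets that the annotation assigned to several genes, among them an H2 gene, were kept apart. The RNA came from naive adult male mice, 10 of B6 and 12 of D2, with 1 mouse per array and neither strain treated or genetically modified. Both strains are fully inbred, so each group stands for 1 genotype. RNA was depleted of ribosomal RNA, amplified, biotin-labelled and hybridised to Affymetrix Mouse Exon 1.0 ST arrays, on which each gene is read by several probesets placed in its exons.

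A class I molecule is a heavy chain that spans the membrane, bound to the small light chain beta-2-microglobulin and to a short peptide. Proteasomes cut the peptides in the cytosol, the Tap1-Tap2 pump moves them into the endoplasmic reticulum, and tapasin holds the empty heavy chain next to the pump until a peptide fits. H2-K1 and H2-D1 encode the classical heavy chains, which show peptides to CD8 T cells and are among the most variable genes between mouse strains, and B6 and D2 carry different haplotypes of the H2 complex (H2b and H2d). H2-T23 encodes Qa-1, a non-classical heavy chain that natural killer cells read, and H2-Q10 a secreted one best known from liver. In the brain, class I genes are active in endothelial cells and microglia and at lower levels in neurons, where they have been studied in synapse pruning.

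The class I heavy chain genes and B2m share a textbook promoter module with a kappa B site, an interferon response element bound by IRF factors, a cyclic AMP response element and a CCAAT box. The promoters of H2-K1, H2-D1, H2-Q10 and B2m are shown because the results below set these genes against each other. They are the RefSeq sequences of build GRCm38.p6, which is a B6 genome, each 300 bases long and spanning the annotated start. All are written 5′ to 3′ on the gene's strand. Capitals mark the kappa B palindrome (the first run of capitals in the H2-K1 window), AANNGAAA (the IRF core), TGACG (the core of the response element) and CCAAT, searched on either strand, and no matches overlapped.
H2-K1, chr17:34000298-34000597, minus strand: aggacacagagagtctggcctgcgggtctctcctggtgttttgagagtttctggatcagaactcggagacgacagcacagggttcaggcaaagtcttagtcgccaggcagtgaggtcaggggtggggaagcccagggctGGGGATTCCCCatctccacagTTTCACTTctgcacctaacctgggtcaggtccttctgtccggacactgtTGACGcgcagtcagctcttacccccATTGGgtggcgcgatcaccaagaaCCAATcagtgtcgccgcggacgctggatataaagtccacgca
H2-D1, chr17:35262844-35263143, plus strand: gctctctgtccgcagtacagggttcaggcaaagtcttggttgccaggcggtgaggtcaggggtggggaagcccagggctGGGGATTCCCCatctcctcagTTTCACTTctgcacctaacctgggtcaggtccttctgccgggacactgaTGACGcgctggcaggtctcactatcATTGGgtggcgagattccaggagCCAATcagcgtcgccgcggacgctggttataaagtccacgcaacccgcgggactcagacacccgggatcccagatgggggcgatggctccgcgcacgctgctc
H2-Q10, chr17:35469839-35470138, plus strand: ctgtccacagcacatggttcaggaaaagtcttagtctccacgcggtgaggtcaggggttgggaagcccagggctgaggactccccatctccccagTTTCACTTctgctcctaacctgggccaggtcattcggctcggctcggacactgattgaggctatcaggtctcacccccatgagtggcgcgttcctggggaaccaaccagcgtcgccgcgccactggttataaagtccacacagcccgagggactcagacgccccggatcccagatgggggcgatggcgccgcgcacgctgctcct
B2m, chr2:122147437-122147736, plus strand: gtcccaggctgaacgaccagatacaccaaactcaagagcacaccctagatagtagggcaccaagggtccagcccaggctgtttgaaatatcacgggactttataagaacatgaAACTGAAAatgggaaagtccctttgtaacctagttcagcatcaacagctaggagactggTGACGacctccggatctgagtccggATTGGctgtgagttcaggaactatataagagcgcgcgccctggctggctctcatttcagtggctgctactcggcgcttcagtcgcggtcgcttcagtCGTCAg

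The H2-K1 window held all 4 motifs, and so did the H2-D1 window. Of the motifs searched, the H2-Q10 window held the IRF core alone. B2m held the IRF core, TGACG and the CCAAT box. In a local alignment, 206 of 228 columns were identical between H2-K1 and H2-D1 (90.4%) and 256 of 303 between H2-D1 and H2-Q10 (84.5%). Among all 32851 promoters of the table, 0.0304% held the kappa B palindrome, in 9 genes of which 3 were H2 genes (H2-K1, H2-D1 and H2-Q6), while 23.9% held AANNGAAA, 20.8% TGACG and 37.4% CCAAT. H2-T23, Tap1 and Tapbp had entries too and are not printed. These letters are a description of the B6 sequence, and the D2 sequence was not used here.

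Called probesets lay in the heavy chain genes, H2-K2 and B2m. Of the 101 member probesets, 15 were called different between D2 and B6, 5 higher and 10 lower in D2 (limma, adjusted p under 0.05 over all 1190406 probesets). Of all probesets 1.88% were called (0.788% higher, 1.1% lower). Of those with 1 gene symbol 2.83% were (0.897% higher, 1.93% lower), and of those with 1 symbol at or above the filter level given below 3.41%. The calls lay in H2-K1 (5 of 12), H2-K2 (3 of 5), B2m (3 of 5), H2-Q10 (2 of 16), H2-D1 (1 of 9) and H2-T23 (1 of 6). None of the 19 probesets of Tap1, the 18 of Tap2 and the 11 of Tapbp was called by limma, while 2, 1 and 3 of them had an unadjusted p under 0.05. The median difference of the 101 probesets was 0.043 (log2, D2 minus B6), beside 0.020 for all probesets. The values of the strains did not overlap in 5 member probesets, 3 of H2-K1 and 1 each of H2-T23 and H2-K2, beside 0.406% of all probesets and 0.582% of those with 1 symbol. In 21 members, 11 of them of H2-Q10, both strain means lay below 1.44, the median of all probeset means and here the filter level under which a probeset counts as dim.

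**Figure D1:**
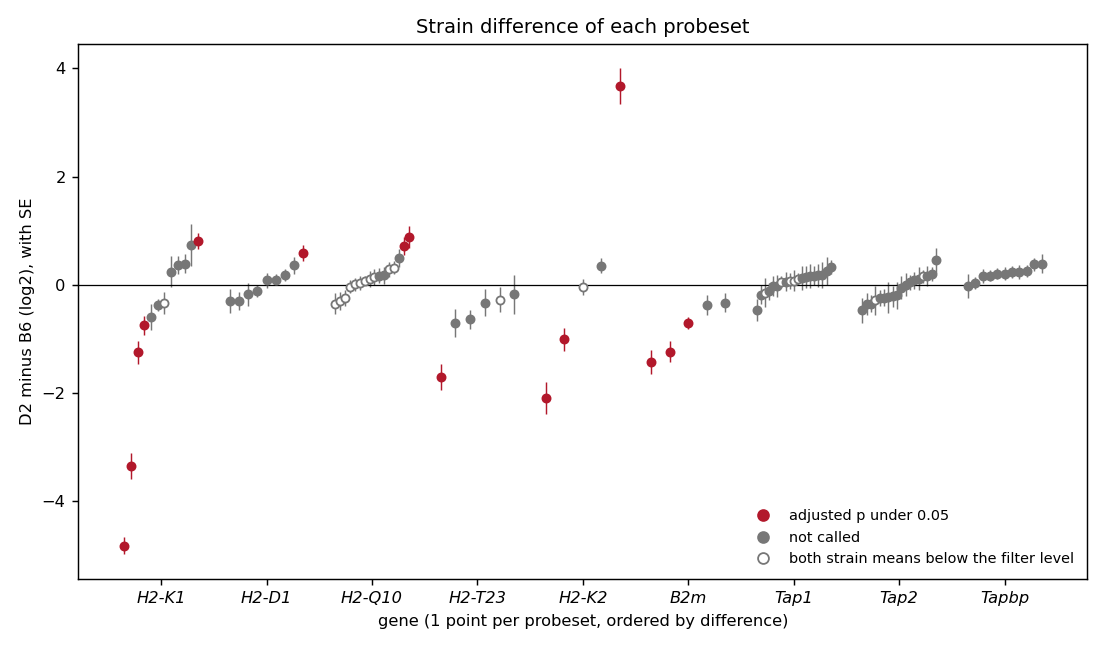
Difference between the strains (D2 minus B6, log2, with its standard error) for each of the 101 member probesets, grouped by gene; red points had an adjusted p under 0.05, and open points lay below the filter level in both strains. The calls of H2-K1 run from -4.82 to 0.80, while no point of Tap1, Tap2 or Tapbp is red.

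For a value per gene, the median was taken on every array over those of its probesets at or above the filter level, and all 9 members had at least the 3 probesets this needed. By that measure H2-K1 and B2m fell in D2, H2-Q10 rose, and H2-D1, H2-T23, H2-K2, Tap1, Tap2 and Tapbp were not called. Of the 15951 genes tested 10.9% were called, 2.56% higher and 8.29% lower in D2. In none of the 9 members did the gene values of the strains not overlap, beside 1.18% of all genes. With the median of each array as covariate 0 of the 9 gene values were called by limma, and 3 had an unadjusted p under 0.05 (489 of all genes were called). H2-K1 was then at -0.38, B2m at -0.46 and H2-Q10 at 0.47 (adjusted p from 0.149 to 0.397). The array medians lay between 1.41 and 1.47 in B6 and between 1.45 and 1.51 in D2, so they moved with strain, and their part in these differences was not tested.

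**Figure D2:**
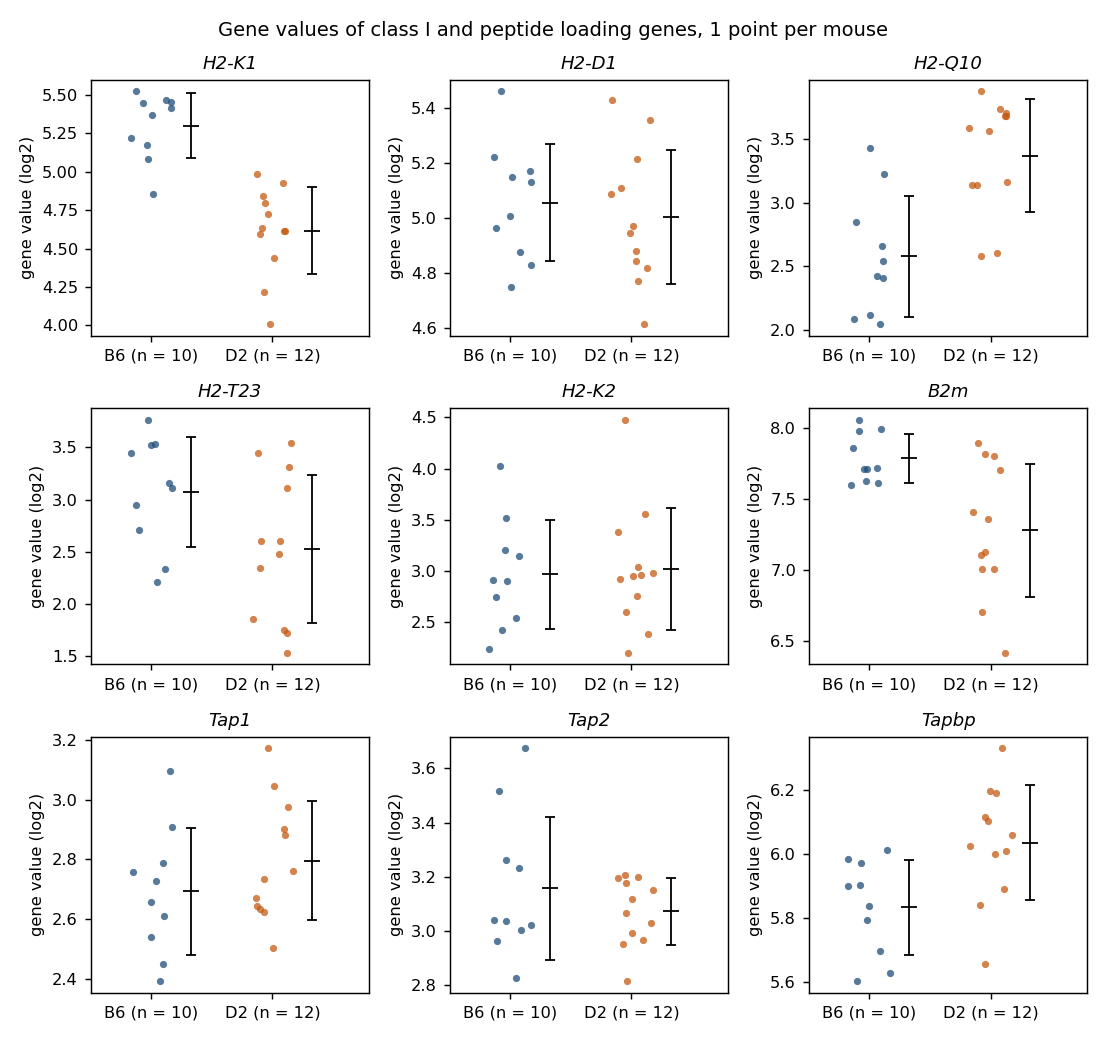
Gene values (log2) of the 9 members, with 1 point per mouse for 10 B6 and 12 D2 mice and the mean with its SD beside the points; each panel has its own axis. The B6 and D2 points overlap in every panel; in H2-K1 the lowest B6 mouse is at 4.86 and the highest D2 mouse at 4.98.

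H2-K1, a classical heavy chain gene, had a lower gene value in D2, though 5 of its 12 probesets were higher there. Its gene value ran from 4.86 to 5.52 in B6 (median 5.39) and from 4.01 to 4.98 in D2 (median 4.62). The difference was -0.68 ± 0.11 (SE; limma adjusted p = 6.39e-05). The median was over 10 probesets, among them 4564929, which passed the filter level through B6 alone. The gene value call is therefore not a result apart from that probeset. At single probesets the difference was far from even. Probeset 4564929 lay between 4.73 and 6.06 in B6 (median 5.54) and between -0.03 and 1.09 in D2 (median 0.67), a difference of -4.82 ± 0.17 (SE; limma adjusted p = 9.82e-17). Every D2 mouse was below the filter level there and every B6 mouse far above it, so the size of the difference is measured against a level that may be background. Probeset 4454519 ran from 4.62 to 6.07 in B6 (median 5.32) and from 1.04 to 3.26 in D2 (median 1.91), with a difference of -3.35 ± 0.24 (SE; limma adjusted p = 3.49e-10). Its strain values did not overlap either. Probeset 4375868 differed by -1.25 ± 0.22 (SE), from 5.20 to 7.01 in B6 (median 5.87) against 3.72 to 5.35 in D2 (median 4.59), and the strains overlapped narrowly. Of the other called probesets, chosen after their values were seen, 4396393 fell by 0.75 and 4610126 rose by 0.80, with every D2 mouse (5.85 to 6.83) above every B6 mouse (4.35 to 5.81). The remaining 7 probesets were not called, with differences from -0.60 to 0.74. Without the 3 probesets whose strain values did not overlap, the gene value of H2-K1 was at -0.24 and was not called (limma adjusted p = 0.25), a setting added after the data were seen. Whether sequence differences between the H2 haplotypes lie under these probes was not tested, since no probe sequences or variants were used here. The same holds for strain sequence differences under the probes of every gene below, B2m among them.

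H2-D1, the other classical heavy chain gene, did not differ as a gene. Its gene value ran from 4.75 to 5.46 in B6 (median 5.07) and from 4.61 to 5.43 in D2 (median 4.96). The difference was -0.05 with a 95% interval of -0.26 to 0.15 (limma adjusted p = 0.779). The single called probeset of the 9, 4933051, rose by 0.59 ± 0.15 (SE; limma adjusted p = 0.0309), from 4.75 to 5.89 in B6 (median 5.59) and from 5.61 to 6.79 in D2 (median 6.11). Its strain values overlapped. The call was lost with arrays centred on their medians (0.55, limma adjusted p = 0.0515), with the array median as covariate, within each letter of the CEL names (A or B, described with B2m) and without D2 replicates 13, 14 and 19, which had correlated least with their strain in an earlier analysis of these data. The other 8 probesets lay between -0.30 and 0.36. H2-K1 and H2-D1 are close paralogs, and 3 probesets with values carried both symbols. Of these, 2 rose in D2. Probeset 5321284 was at 5.33 ± 0.39 in B6 (SD) and rose to 7.01 ± 0.46 in D2, by 1.68 ± 0.18 (SE; limma adjusted p = 4.83e-07). Probeset 5455231 was at 3.72 ± 0.65 in B6 and rose to 5.13 ± 0.36 in D2, by 1.41 ± 0.21 (SE), with no overlap. The third, 4817797, was at 0.23 and was not called (limma adjusted p = 0.242). Signal at 2 probesets assigned to both genes was thus higher in D2, where 2 of the probesets assigned to H2-K1 alone were lower by more than 3.

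H2-K2 is listed as a transcribed pseudogene next to H2-K1, and its probesets went in opposite directions. Probeset 4960552 ran from -0.43 to 2.21 in B6 (median 0.32) and from 2.38 to 5.55 in D2 (median 4.28), so that every D2 mouse was above every B6 mouse. It rose by 3.67 ± 0.33 (SE; limma adjusted p = 3.11e-08), a size measured against a B6 mean below the filter level, where the signal may be background. Probeset 5030290 fell by 2.09 ± 0.29 (SE; limma adjusted p = 5.03e-05), from 1.98 to 4.22 in B6 (median 2.91) to between -0.01 and 2.27 in D2 (median 0.73), where the mean was again below the filter level. Probeset 5219977 fell by 1.01 ± 0.21 (SE), from 2.36 to 4.07 in B6 (median 2.80) to between 1.37 and 3.40 in D2 (median 1.84). The other 2 probesets differed by -0.04 and 0.35 and were not called. The gene value, a median over these opposite probesets, was 2.97 ± 0.53 in B6 (SD), against 3.02 ± 0.59 in D2. That is a difference of 0.05 with a 95% interval of -0.40 to 0.50. It was at -0.66 when the dim probesets were counted too (limma adjusted p = 0.0497) and at -1.35 without probeset 4960552, so no direction can be given for H2-K2 as a gene.

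**Figure D3:**
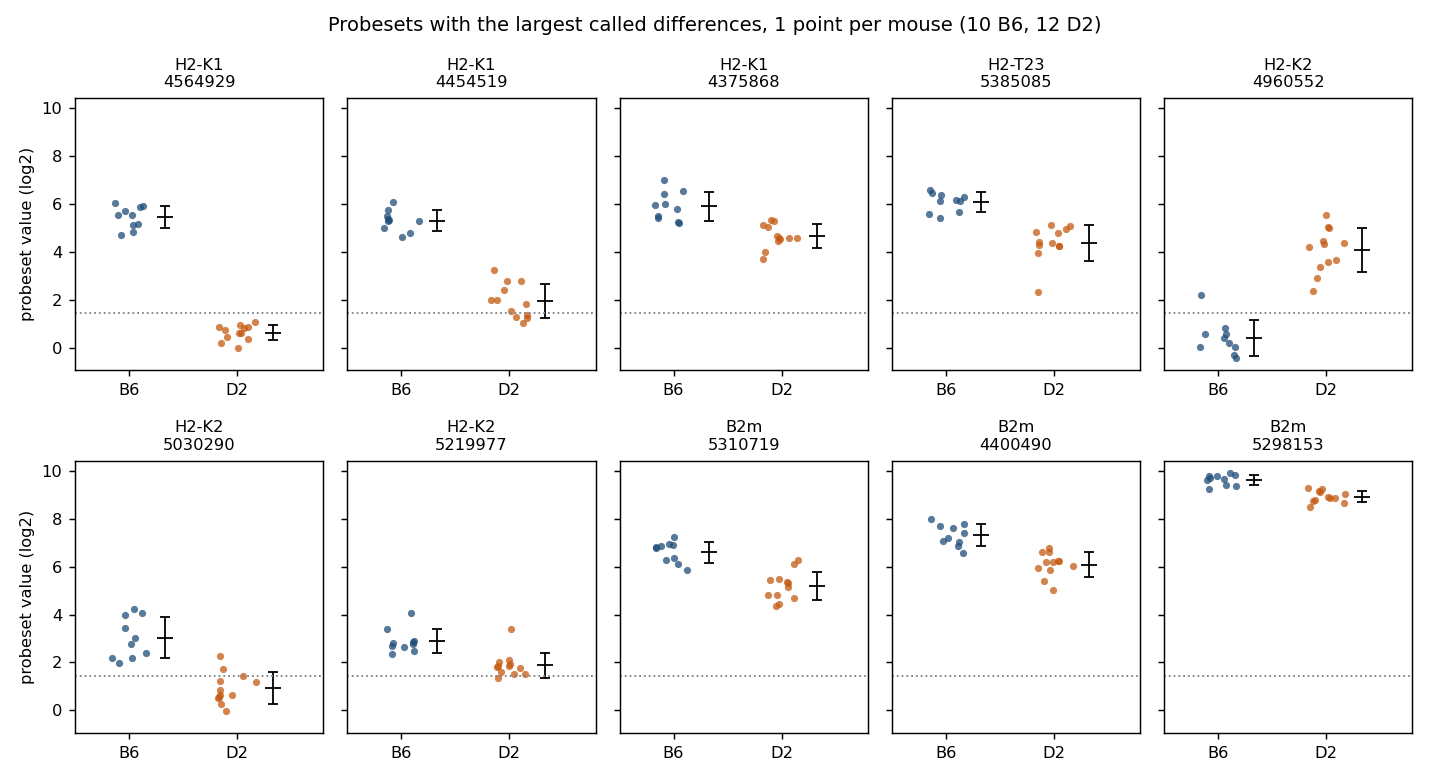
Values (log2) of the called probesets with the largest differences in H2-K1, H2-T23, H2-K2 and B2m, with 1 point per mouse (10 B6, 12 D2), the mean with its SD beside the points and the filter level of 1.44 as a dotted line. D2 mice lie below the line at H2-K1 4564929, and at H2-K2 4960552 all D2 mice lie above all B6 mice.

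H2-T23, the Qa-1 gene, had a lower value in D2 at each of its 6 probesets, but 1 of them was called. Probeset 5385085 lay between 5.42 and 6.60 in B6 (median 6.16) and between 2.34 and 5.11 in D2 (median 4.40). It differed by -1.70 ± 0.24 (SE; limma adjusted p = 6.86e-05), and no D2 mouse reached the lowest B6 mouse. The other 5 probesets differed by -0.71 to -0.18. The gene value was 3.07 ± 0.52 in B6 (SD), against 2.53 ± 0.71 in D2. That is a difference of -0.55 with a 95% interval of -1.05 to -0.05, and was not called (limma adjusted p = 0.155). With the mean over probesets in place of the median it was called, at -0.71 (limma adjusted p = 1.58e-06). That mean takes in the called 5385085, so it is not a result apart from that call. It also takes in 4826775, which passed the filter level through B6 alone. A further 7 probesets carried both H2-T23 and its neighbour C920025E04Rik, now named H2-T-ps. All 7 were lower in D2, by 0.23 to 1.04, and 2 were called. Probeset 4851452 was at 5.02 ± 0.48 in B6 and 3.97 ± 0.46 in D2 (SD), and probeset 4897040, named after its values were seen, at 3.71 ± 0.38 and 2.91 ± 0.55.

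H2-T10 and H2-T22 are non-classical genes whose proteins gamma delta T cells can bind. Of 25 probesets that carried H2-T22 among several symbols, with H2-T10 in all but 2, 8 fell in D2, none rose, and the median difference was -0.52. The largest were at 4498973 (-1.36, from 2.83 ± 0.50 in B6 to 1.47 ± 0.53 in D2), 5450916 (-1.14), 5530330 (-1.01) and 4418503 (-0.94). Of 50 other probesets with an H2-Q gene among their symbols, in part beside genes outside the H2-Q family, 6 rose and 1 fell. Among those that rose, 5409492 (0.48), also carried H2-D1 and was named after its values were seen. For the 50, the median difference was near 0 (-0.0014). The probeset that fell, 4449690, was at 4.04 ± 0.30 in B6 (SD) and 1.79 ± 0.62 in D2. The strains differed by -2.26 ± 0.20 (SE; limma adjusted p = 2.58e-08), with no overlap. Among those that rose were 4468547 (1.28) and 4721200, assigned to H2-Q7 and H2-Q8, at 5.79 ± 0.30 in B6 and 6.95 ± 0.25 in D2, again with no overlap. In all, 20 of the 95 shared probesets were called, 9 higher and 11 lower, beside 4.82% of all 6308 probesets with several symbols. No gene can be named from them, and signals of these paralogs on 1 probeset cannot be told apart.

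**Figure D4:**
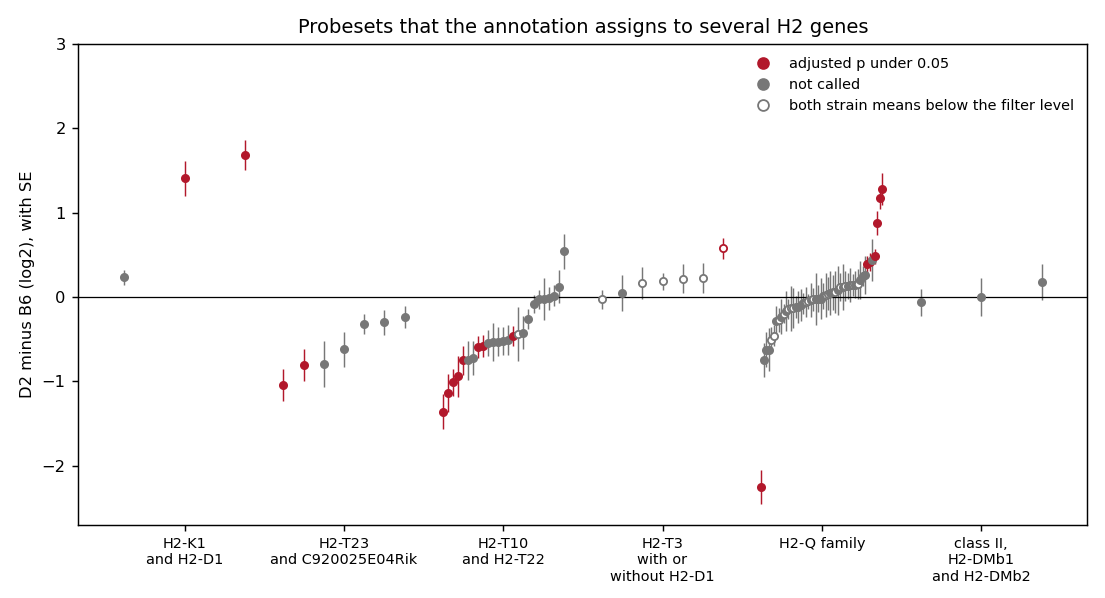
Difference between the strains (D2 minus B6, log2, with its standard error) for the 95 probesets that the annotation assigns to several genes including an H2 gene; red points had an adjusted p under 0.05, and open points lay below the filter level in both strains. Red points of H2-K1 and H2-D1 lie above 0, those of H2-T23 and of H2-T10 and H2-T22 below 0, and those with an H2-Q gene on both sides.

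H2-Q10, the secreted heavy chain gene, was mostly dim, and 11 of its 16 probesets had both strain means below the filter level. Its 2 called probesets rose in D2. Probeset 4355658 ran from 1.57 to 3.43 in B6 (median 2.49) and from 2.58 to 3.87 in D2 (median 3.57), a difference of 0.88 ± 0.21 (SE; limma adjusted p = 0.022). Probeset 4503330 ran from 0.82 to 2.05 in B6 (median 1.48) and from 1.71 to 2.88 in D2 (median 2.05), a difference of 0.72 ± 0.17 (SE; limma adjusted p = 0.0195). The strains overlapped at both. Both calls were lost with the array median as covariate, 4355658 at 0.46, and on letter B arrays alone, that of 4503330 also on letter A arrays alone (limma adjusted p = 0.0654) and that of 4355658 without D2 replicates 13, 14 and 19 (limma adjusted p = 0.0546). The other 14 probesets were not called, at -0.35 to 0.50. The gene value, a median over 5 probesets, rose by 0.79 ± 0.18 (SE; limma adjusted p = 0.00399). In every D2 mouse that median was the value of 4355658, so the rise is not a result apart from that call. Over all 16 probesets the gene value difference was 0.066 (limma adjusted p = 0.694).

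B2m encodes the light chain of every class I molecule and lies on chromosome 2, away from the other members on chromosome 17. All 5 of its probesets were lower in D2, and 3 were called. Probeset 5310719 ran from 5.86 to 7.23 in B6 (median 6.80) and from 4.37 to 6.26 in D2 (median 5.23), a difference of -1.42 ± 0.21 (SE; limma adjusted p = 0.000133). Probeset 4400490 ran from 6.57 to 7.98 in B6 (median 7.31) and from 5.02 to 6.77 in D2 (median 6.18), a difference of -1.24 ± 0.20 (SE; limma adjusted p = 0.00027). Probeset 5298153 was more even between mice, from 9.24 to 9.92 in B6 (median 9.68) and from 8.51 to 9.28 in D2 (median 8.89), a difference of -0.70 ± 0.11 (SE; limma adjusted p = 0.000274). In each of the 3 the highest D2 mice overlapped the lowest B6 mice. The other probesets, at -0.37 and -0.33, were not called. All 3 calls were lost with the array median as covariate (-0.84, -0.57 and -0.54 in the same order) and on the 4 letter B arrays alone, where 4400490 was at -2.40.

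The gene value of B2m fell by 0.51 ± 0.15 (SE; limma adjusted p = 0.0242), a 1.42-fold difference. It ran from 7.60 to 8.06 in B6 (median 7.72, SD 0.17) and from 6.41 to 7.89 in D2 (median 7.24, SD 0.47). In every D2 mouse it was the value of probeset 4530527, itself not called (-0.33). In B6 it came from different probesets. At 4530527 the SDs were closer, 0.39 in B6 and 0.47 in D2. By gene value the lowest D2 mice were replicates 13 (6.41) and 22 (6.70), and these are the 2 D2 arrays whose CEL name carries the letter B after the array number. The 2 B6 arrays with that letter, replicates 5 and 6, were at 7.71 and 7.98. Among the called probesets, replicate 13 was the lowest D2 mouse at 4400490 (5.02). At 5310719 it was replicate 24 (4.37), with replicate 22 at 5.46. At 5298153 it was replicate 18 (8.51), with replicate 13 at 8.90. On the 18 letter A arrays alone the gene value difference was -0.35 and was not called (limma adjusted p = 0.104), while the 4 letter B arrays alone gave -1.29 (limma adjusted p = 0.0538). With the letter as a block, the gene value of B2m stayed called. The called B2m probesets stayed called with that block and on the letter A arrays alone. No source used here says what the letter stands for, and its part in the B2m difference was not tested further. H2-K1 was at -0.65 on the letter A arrays (limma adjusted p = 0.000915). Whether strain sequence differences lie under the B2m probes was not tested. In whole brain RNA, fewer cells of a type and less RNA per cell cannot be told apart.

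The genes of the peptide pump, Tap1 and Tap2, showed no called difference. Tap1, a subunit of the pump, had a gene value of 2.69 ± 0.21 in B6 (SD), against 2.80 ± 0.20 in D2, and the difference was 0.10 with a 95% interval of -0.08 to 0.29. Its 19 probesets differed by -0.47 to 0.33, and the one with the smallest p, 4398821, ran from 4.47 to 5.28 in B6 (median 4.88) and from 4.56 to 5.57 in D2 (median 5.27). Tap2, its partner subunit, was at 3.16 ± 0.26 in B6, against 3.07 ± 0.12 in D2, and the difference was -0.09 with a 95% interval of -0.27 to 0.10. Its 18 probesets lay between -0.47 and 0.46. The smallest p was at 5380310, from 1.81 to 3.23 in B6 (median 2.35) and from 1.38 to 2.72 in D2 (median 1.96). Neither interval includes the B2m gene value difference of -0.51, though the 95% interval of B2m (-0.81 to -0.21) overlaps that of Tap2. At 5 of the 19 Tap1 and 2 of the 18 Tap2 probesets both strain means lay below the filter level.

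Tapbp, the tapasin gene, was slightly higher in D2 at 10 of its 11 probesets, none of them called. Its gene value ran from 5.60 to 6.01 in B6 (median 5.87) and from 5.66 to 6.33 in D2 (median 6.04). The difference was 0.20 with a 95% interval of 0.04 to 0.36, and it was not called (limma adjusted p = 0.102). It was called with the letter as a block (0.19, limma adjusted p = 0.0389) and with the mean over probesets (0.20, limma adjusted p = 0.0346). The probeset with the smallest p, 4797473, ran from 5.37 to 6.15 in B6 (median 5.87) and from 5.84 to 6.72 in D2 (median 6.20). It was called when the test was limited to probesets at or above the 75th percentile of mean level (limma adjusted p = 0.047).

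The uneven probesets were also measured as exon usage, the subject in the title of the series. The splicing index takes the gene value of an array away from each of the gene's probesets there (log2), and a call needed an adjusted p under 0.05 and a difference of at least 0.5. Of 79 member probesets tested 11 were called, 5 with a higher and 6 with a lower index in D2, beside 1.67% of all probesets tested (0.894% higher, 0.772% lower). They lay in 4 of the 9 genes, and 14% of all genes had at least 1 such call. H2-K1 had 5 of 10, and its index fell by 4.13 at 4564929 and by 2.67 at 4454519 and rose by 1.49 at 4610126, 1.07 at 4348560 and 1.05 at 4323669. The own level of the last pair was not called different (0.39 and 0.37), while the gene value they were set against fell. H2-K2 had 3 of 4 (3.61, -1.06 and -2.15), B2m 2 of 5 (-0.73 and -0.92) and H2-D1 1 of 9 (0.64). H2-T23, H2-Q10, Tap1, Tap2 and Tapbp had no limma call, with 1 or 2 probesets each at an unadjusted p under 0.05. Of these calls, those at H2-K1 4564929 and at H2-K2 4960552 and 5030290 are of probesets that lay below the filter level in 1 strain and passed it through the other, so they are a description and lend the count no support. The gene values of H2-K1 and H2-K2 included these probesets, so the other index calls of both genes are not apart from them. An index call need not be a splicing difference, since any probeset that departs from its gene gives it.

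Few pairs of members varied together from mouse to mouse. After each strain's mean was subtracted, correlations of gene values over the 22 arrays ran from r = -0.45 (H2-K1 and H2-T23) to r = 0.59 (H2-D1 and B2m). H2-D1 and Tap2 had r = 0.47, H2-K1 and H2-K2 r = 0.41, B2m and Tapbp r = 0.39, Tap1 and Tap2 r = 0.37, and H2-K1 and B2m r = 0.13. The other pairs lay between these extremes. The genes most like B2m by this measure were Glo1 (r = 0.91), Erg28 (r = 0.89) and Ankrd65 (r = 0.85), and those most like H2-K1 were Slc30a5 (r = 0.84), Ugp2 (r = 0.83) and C1galt1 (r = 0.82). H2-D1 was most like 4930503B20Rik (r = 0.81), Tapbp like Grhpr (r = 0.85) and Tap1 like Foxi1 (r = 0.74). The next after Foxi1 was Ifi27 (r = 0.71), an interferon-induced gene. The highest values were 0.72 for H2-Q10 (Sohlh1), 0.73 for H2-T23 (Nron), 0.75 for H2-K2 (Apol8) and 0.67 for Tap2 (Nelfe). These values are a description of 22 arrays normalised together and were the highest among 15951 genes, so they show no link between the genes.

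Other genes of the pathway were taken from fixed lists and are counted at the level of gene values, of which 10.9% were called over all genes (2.56% higher, 8.29% lower). Of 10 measured genes of peptide loading and quality control, among them Calr, Canx, Pdia3 and the trimming enzyme Erap1, none was called and 1 had an unadjusted p under 0.05, Calr (limma adjusted p = 0.187). The median difference of the list was -0.12, beside -0.05 over all genes. Of 12 proteasome and peptidase genes 1 fell, the constitutive catalytic subunit Psmb6, at 6.94 ± 0.26 in B6 and 5.86 ± 0.29 in D2 (SD; limma adjusted p = 1.25e-07). The interferon-induced subunits Psmb8 (0.26), Psmb9 (-0.18) and Psmb10 (-0.05), singled out after the values were seen like Nlrc5 and Fcgrt below, were not called. Of 25 regulators of class I transcription 3 fell, Rfxank (-0.57), a subunit of the RFX complex that binds class I and II promoters, and the interferon signalling factors Irf9 (-0.28) and Stat2 (-0.22). That count is near the share over all genes. The class I transactivator Nlrc5 was not called (0.05). Its level was low, with means of 2.12 in B6 and 2.17 in D2, as was that of Psmb8 (1.89 and 2.15), which limits what can be seen.

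Among 7 other class I and class I-like genes 2 fell and none rose, beside 8.29% and 2.56% of all genes, the background of the other counts here too. They were Hfe (-0.82), the iron regulator that pairs with B2m, and Mr1 (-0.37), which presents vitamin metabolites. The neonatal Fc receptor gene Fcgrt was not called. A gene value was had by 7 of the 31 listed genes, while 24 had at least 1 probeset of their own. Of 2 measured receptors for class I, Pirb and Cd8a, neither was called, and Pirb had an unadjusted p under 0.05 (limma adjusted p = 0.128). Of 7 class II genes H2-Ea rose (1.66) and H2-Ab1 fell (-1.04). Of 17 interferon-stimulated genes 2 rose, Xaf1 (1.55) and Trim21 (0.42), and 5 fell, with Igtp (-0.67), Ifih1 (-0.52) and Irgm1 (-0.49) first, and the list's median was -0.20. Levels were low in both lists. The mean lay below 3 in 13 of the 17 interferon-stimulated genes in B6 and 14 in D2. Among the 7 class II genes it did so in 3 in B6 and 6 in D2.

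**Figure D5:**
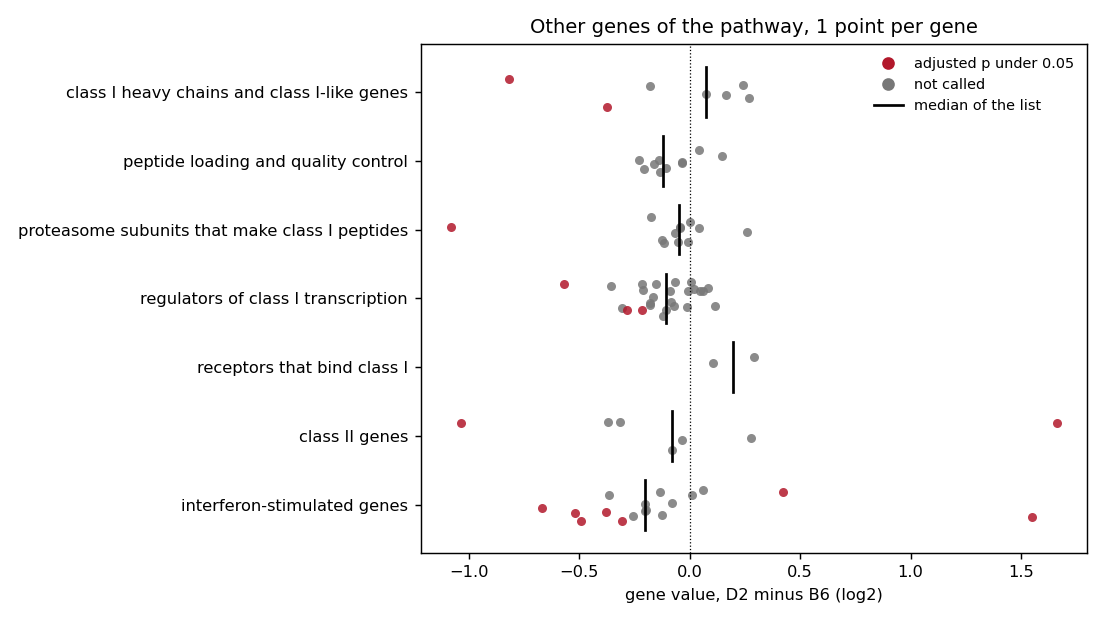
Difference of gene values between the strains (D2 minus B6, log2) for the measured genes of 7 pathway lists, with 1 point per gene, red where the adjusted p was under 0.05 and a black bar at the list's median. The loading list has no red point, and the interferon-stimulated list has 2 red points above 0 and 5 below.

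At least 1 marker fell in every cell type list but that of T, B and natural killer cells, while most markers were not called. Of all gene values 8.29% fell and 2.56% rose, which is the background of each count that follows. Of 12 measured microglia and macrophage markers 4 fell and none rose, C1qb (-0.90), Cd68 (-0.49), Tyrobp (-0.44) and Mrc1 (-0.32). The other 8, from -0.25 (C1qc) to 0.07 (Aif1), were not called. The mean over that list ran from 4.07 to 4.56 in B6 and from 3.88 to 4.29 in D2. Of 9 endothelial markers Slco1a4 (-0.41) and Pecam1 (-0.33) fell, with a list mean of 4.93 to 5.31 in B6 and 4.71 to 5.14 in D2. Of 9 neuronal markers 1 fell, Map2 (-0.38), and their means, from 8.37 to 8.71 in B6 and from 8.19 to 8.62 in D2, were those of brain. Of 8 astrocyte markers 1 rose and 3 fell, of 6 oligodendrocyte markers 1 fell, and of 8 ependyma and choroid plexus markers 3 fell. Of 3 red blood cell genes 2 fell, Hbb-b1 (-4.12) and Alas2 (-0.90), while Slc4a1 was not called (0.01). Their mean ran from 5.21 to 5.78 in B6 and from 3.24 to 4.67 in D2, a difference that rests mostly on Hbb-b1. The blood content of the brains was not tested. Of 6 T, B and natural killer cell markers 1 rose (Cd79a), at means between 2.08 and 2.74 in the strains. The part of these cells in the differences of H2-K1 and B2m was not tested.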

How the data were processed

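Values were the log2 RMA values deposited by the authors for 22 of 24 hybridised arrays (10 B6, 12 D2; 2 had been scanned on another scanner, per the labels' protocols). Per the submitters' processing notes, affy 1.12.2 in R 2.6.0 and RMA were used, a method that corrects background and makes the arrays' distributions alike. The probeset definition and genome build are not given in the sources used here. Of 1201338 probesets 10932 were empty. By the platform annotation, 309786 of the rest carried 1 symbol, 6308 several and 874312 none. Older symbols were updated through RefSeq (GRCm38.p6), 17975 being current, 4215 updated through a unique synonym and 61 kept as given.

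Strains were compared with limma 3.58.1 (lmFit, eBayes) in R 4.3.3, over all 1190406 probesets, 15951 gene values or 236254 index values, each with Benjamini-Hochberg adjustment. Scripts were tested on simulated data. Arrays have no read depth, and their number limits the precision. P-values set the difference between the strains against the spread between these mice. Named probesets were the up to 3 called per gene with the largest difference, or else the one with the smallest p, and up to 10 called shared probesets. Members and lists were chosen with earlier results of these data known. Alternatives were filters, scaling, the array median as covariate, the CEL letter, the mean over probesets and left-out arrays.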

Additional observations from a re-analysis of the deposited data

Results flagged for a closer look

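Among 25 values of the members checked over the 10 B6 arrays, 3 had an array far from the others (gap to the nearest array over the whole range above Dixon's 95% critical value, which chance alone passes in about 1 of 20 groups). H2-D1 probeset 4933051 was at 4.75 in B6 replicate 9, below the other B6 arrays at 5.41 to 5.89. H2-K2 probeset 4960552 was at 2.21 in B6 replicate 5, above the others at -0.43 to 0.84. Tap2 probeset 5380310 was at 3.23 in B6 replicate 3, above the others at 1.81 to 2.49. The 12 D2 arrays were not checked in this way.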

How the results depend on the processing

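Of 51 comparisons of counts with their alternatives, 36 stayed within 1.5 times and 15 moved. With probesets at or above the 75th percentile, 12 shared probesets, 5 pathway genes and 6 exon usage differences were called, against 20, 15 and 11. With the array median as covariate, 6 member probesets, 8 shared probesets, 0 member gene values and 3 pathway genes were called; the cause was not tested. Letter A arrays alone gave 12 shared probesets. The 4 letter B arrays, fewer samples, gave 1 member probeset, 2 pathway genes and, by limma, 0 shared probesets, 0 gene values and 0 exon usage differences (18, 2 and 16 at an unadjusted p under 0.05). The mean over probesets gave 5 gene values, and a difference of at least 0.5 left 8 pathway genes. Some uncalled gene values changed direction. H2-D1 was at 0.19 above the 75th percentile, 0.0011 on letter A arrays and 0.047 with the mean; Tap1 at -0.074 above the 75th percentile and -0.0063 with the covariate; Tap2 at 0.0081 on letter B arrays. H2-K2 was at -0.66 with no filter, -0.61 on letter B arrays, -0.034 without D2 replicates 13, 14 and 19, and -1.35 without non-overlapping probesets, an alternative chosen after seeing the data. Of the values of single probesets and genes, 183 kept direction and side of the threshold, 36 lost the call and 4 gained it. No paired analysis was possible because the strains share no replicate number. Dim signal, as in most of H2-Q10, limits what can be seen.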
